A study of Mus musculus with 3 samples.

Results

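In all, 9 forkhead genes were followed across 3 organ primordia of the mouse gut at embryonic day 11.5. They are Foxc1, Foxc2, Foxd1, Foxd2, Foxf1, Foxf2, Foxp1, Foxp2 and Foxq1. They were chosen by name, with their measured levels on these same 3 arrays already known, so their differences between organs are given as a description, with no test. They make up 9 of the 16998 genes that could be named on the arrays and 9 of the 38 forkhead genes analysed here. Of the 11 probes that carried these genes, 2 belonged to Foxd1, 2 to Foxp2 and 1 to each of the other 7. Every one of the 9 genes had a probe well above background on all 3 arrays.

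The samples were intestine, stomach and esophagus primordia of ICR mouse embryos, an outbred stock, and the labels name no treatment or genetic change. Each organ gave 1 RNA sample, which was hybridised with Cy3 dye to its own 1-colour Agilent array. The organ names follow the tissue labels, although the extraction notes mention only stomach, and the labels state neither the number of embryos nor any pooling. With 1 array per organ there is no spread between replicates and no test, so each difference compares these arrays, and the number of arrays limits its precision.

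Forkhead proteins are transcription factors that bind DNA through a winged-helix domain. In the developing gut, Foxf1 and Foxf2 are known from the splanchnic mesenchyme, where hedgehog signals from the endoderm maintain them. Foxc1 and Foxc2 act in mesenchyme, in vessels and in the tissue of somites and the head, Foxd1 marks stromal progenitors of the kidney, and Foxp1 and Foxp2 are repressors needed in mouse for lung and esophagus.

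Levels are given in log2 units relative to the 75th percentile of the processed signals of an array, so that 0 is the level of that percentile. The percentile itself was 1023 for intestine, 334 for stomach and 393 for esophagus. The scanner software put the error of the spots used at no more than 21.2% of their signal. Different probes of 1 gene gave differences with a median SD of 0.25 log2 units for stomach minus esophagus, 0.46 for intestine minus esophagus and 0.31 for intestine minus stomach. That spread between probes is a median over genes with several probes, so the probes of a single gene can differ by more. It measures no variation between samples. The marker genes of each organ were read first. Cdx2, the regulator of intestinal identity, stood at 1.85 in intestine and −4.37 in stomach and was not well above background in esophagus. Barx1, a gene of stomach mesenchyme, stood at −4.39, 4.43 and 0.87 in intestine, stomach and esophagus, and Sox2, a gene of foregut epithelium, at −2.60, 0.57 and 1.04. The arrays also carried signal of other tissues. All 9 heart markers were well above background on every array. Their summed signal, in multiples of the 75th percentile, came to 4.01 for intestine, 5.25 for stomach and 116 for esophagus. Without Myl7, the brightest of them in esophagus, the sums were 3.53, 4.13 and 51.5. At least 4-fold below esophagus were 8 of the 9 in stomach and all 9 in intestine. Nkx2-5 differed the other way in stomach, by 1.13. Trachea and lung markers were well above background for 4, 5 and 8 of 8 genes in intestine, stomach and esophagus, with sums of 1.28, 2.402 and 10.8. Without Tbx5 those sums were 1.27, 2.06 and 5.53. At least 2-fold below esophagus were 5 of the 8 in stomach and 6 in intestine, while Fgf10 was higher in stomach (1.58). Pharyngeal arch markers were well above background for 5, 6 and 7 of 7 genes, with sums of 5.16, 5.74 and 16.3. The pharyngeal arch sum of esophagus was mostly Tbx1, and without that gene the sums were 4.79, 5.22 and 4.12. Within that list Pax1 and Pax9 were also lower in intestine and stomach than in esophagus, while Hand2 differed the other way, by 2.001 for intestine and 1.81 for stomach, and Dlx5 by 0.79 for stomach. On the intestine array, the 7 liver markers with a probe gave a sum of 60.1, against 3.17 in stomach and 9.70 in esophagus, and 6 of them stood 4-fold or more above their level in each of the other organs. The part of the liver signal in the intestine levels was not tested.

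**Figure D1:**
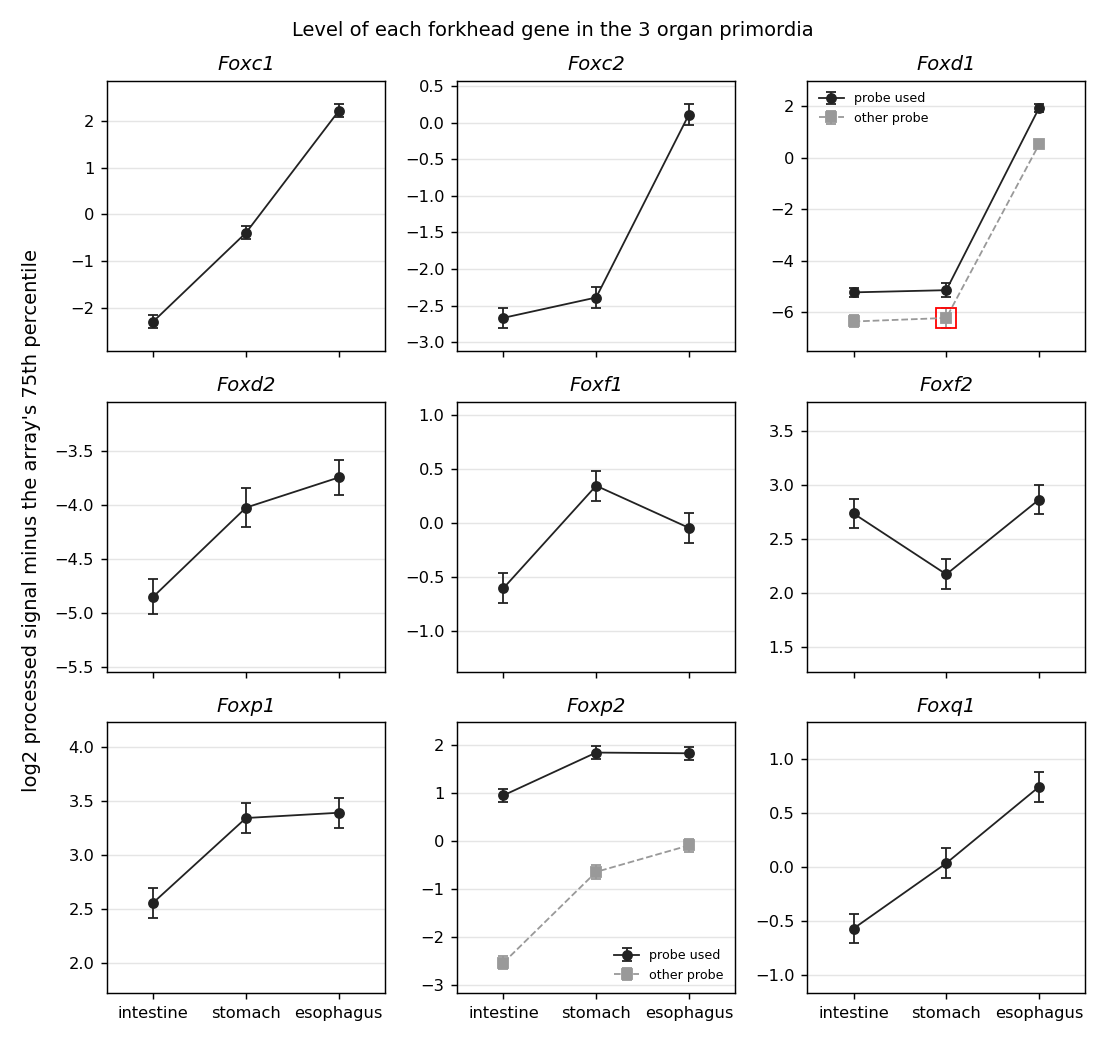
Level of each gene in the 3 organs, on the vertical axis in log2 units relative to the 75th percentile, from 1 array for each organ. Bars are the scanner software's error for the spot, lines join the values of 1 probe, grey squares are the other probe of Foxd1 and Foxp2, and the red box marks a spot not well above background. Foxc1, Foxc2 and Foxd1 stand far higher in esophagus, while Foxf1, Foxf2, Foxp1 and Foxp2 (by the probe used) span less than 1 log2 unit.

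Foxc1, Foxc2 and Foxd1 were at least 4-fold lower in both intestine and stomach than in esophagus, and no member was 2-fold higher in any comparison. Under 1 processing alternative, normexp background correction, Foxc2 in stomach was short of 4-fold (−1.65). Of all genes measured, 4.14% were at least 2-fold higher in stomach against esophagus, 8.4% in intestine against esophagus and 4.77% in intestine against stomach. A level at least 2-fold lower in stomach than in esophagus was seen for 3 of the 9 genes (33.3%) and for 5.71% of all genes. In intestine against esophagus such a level was seen for 5 of 9 and for 11.5% of all genes, and in intestine against stomach for 1 of 9 and for 7.18% of all genes. At least 4-fold lower than in esophagus were 1.58% of all genes in stomach and 3.7% in intestine. Since the members were chosen with such differences known, nothing is read from these shares. The median difference of the 9 genes was −0.69 for stomach minus esophagus, −1.10 for intestine minus esophagus and −0.78 for intestine minus stomach, beside 0.15, 0.10 and −0.05 over all genes. Intestine gave the lowest of the 3 levels for 8 of 9 members, and for 34.7% of the 12864 genes well above background on every array. Esophagus gave the highest for 7 members and for 27.5% of those genes. With each array centred on its median instead, the counts were 6 members beside 16.0% of genes and 5 members beside 14.5%. The values of intestine and stomach minus esophagus share the esophagus array and are not independent of each other. In whole organs, fewer cells of a type and less RNA per cell cannot be told apart.

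**Figure D2:**
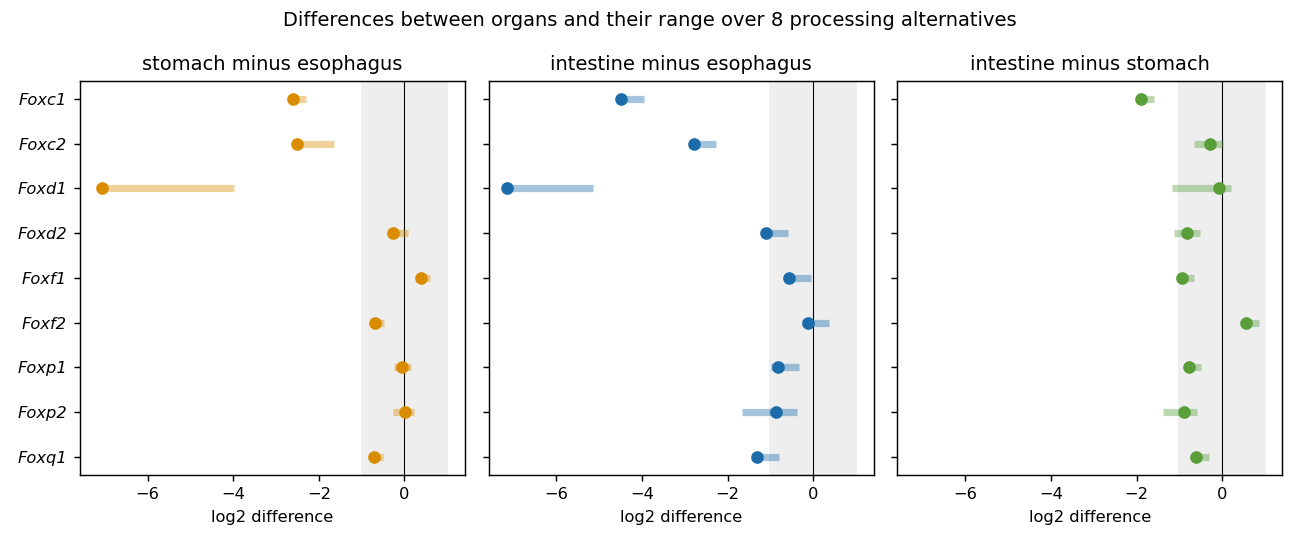
Log2 difference of each gene in the 3 comparisons (points), with the lowest and highest value over the 8 processing alternatives (bars). The grey band marks differences under 2-fold. Foxc1, Foxc2 and Foxd1 stay outside the band in both comparisons with esophagus under each alternative, while Foxd2, Foxp2 and Foxq1 cross its edge for intestine minus esophagus.

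Foxd1 showed the largest differences of the 9. Its level stood at −5.23 in intestine, −5.15 in stomach and 1.93 in esophagus. Intestine and stomach lay together, far below esophagus. Against esophagus, it was 143-fold lower in intestine and 135-fold lower in stomach. Among all genes ranked from the lowest difference, it stood at place 3 of 13737 for stomach minus esophagus and place 10 of 13905 for intestine minus esophagus. The low signals were close to background. The raw median intensity of the spot was 50 over a local background of 16 in intestine, 34.5 over 18 in stomach and 1254 over 21 in esophagus. The second Foxd1 probe had levels of −6.36 in intestine, −6.23 in stomach, where it was not well above background, and 0.51 in esophagus. By that probe Foxd1 was 118-fold lower in intestine and at least 81.7-fold lower in stomach. Both probes thus gave the same direction. After normexp background correction, a model-based alternative to the scanner's subtraction, the Foxd1 differences were −5.15 for intestine and −3.99 for stomach. Between intestine and stomach the difference was −0.09, less than the spread between probes of a gene, but it was −1.16 after that correction.

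Markers of other tissues stood beside this pattern. Of 12695 genes measured on all 3 arrays, the 3 whose 2 differences from esophagus lay nearest to those of Foxd1 were Mybpc3, Cox6a2 and Myh6, all known from heart muscle, at Euclidean distances of 0.40, 0.63 and 0.82 log2 units. Distance was taken over 3 organs, and no gene lay within 0.25. Kidney and urogenital markers, genes of a tissue where Foxd1 is well known, were well above background for 8 of 10 genes on each array, with sums of 3.11 in intestine, 13.01 in stomach and 21.7 in esophagus. The esophagus sum was mostly Osr1, and without that gene the sums were 2.26, 3.86 and 2.73. The median difference of the list was −0.39 for intestine and 0.18 for stomach against esophagus. Within that list Pax8 and Emx2 were not well above background on any array, and Pax2 stood at −5.24, −4.57 and −4.96. The part of the heart, lung, pharyngeal arch or kidney markers in the Foxd1 difference was not tested.

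Foxc1, which acts in mesenchyme of head, eye and heart, was the one member at least 2-fold apart in all 3 comparisons. Its level stood at −2.29 in intestine, −0.39 in stomach and 2.21 in esophagus. Intestine was the lowest and esophagus the highest, with stomach between them. Against esophagus, Foxc1 was 22.7-fold lower in intestine and 6.09-fold lower in stomach, and intestine was 3.73-fold below stomach. Each of these exceeded the spread between probes of a gene. Its place among all genes from the lowest was 122 for stomach minus esophagus, 62 for intestine minus esophagus and 214 of 13820 for intestine minus stomach. The nearest genes by pattern were Baalc, Rspo2, a secreted activator of Wnt signalling, and Mme, a cell surface peptidase, at distances of 0.22, 0.28 and 0.31.

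Foxc2, the paralogue of Foxc1 with roles in lymphatic vessels and somite mesenchyme, stood at −2.67 in intestine, −2.39 in stomach and 0.11 in esophagus. Stomach lay much nearer to intestine than to esophagus. Against esophagus, Foxc2 was 6.89-fold lower in intestine and 5.68-fold lower in stomach. Intestine minus stomach was −0.28, under the spread between probes. It was 0.019 when arrays were centred on their medians and −0.65, above that spread, after normexp correction. After normexp correction the stomach minus esophagus difference was −1.65. The nearest genes by pattern were Gprin3, Myod1, the regulator of skeletal muscle, and Ch25h, an enzyme that hydroxylates cholesterol, at distances of 0.08, 0.10 and 0.10. Foxc1 and Foxc2 are both known in vessels. The 9 endothelial markers were well above background on every array, with sums of 23.0 in intestine, 16.6 in stomach and 19.3 in esophagus and median differences of −0.36 for stomach and 0.26 for intestine against esophagus. Markers of sclerotome and cartilage were well above background for 4, 5 and 6 of 7 genes in intestine, stomach and esophagus, with sums of 3.26, 3.82 and 8.89. Without Col2a1 the sums were 1.97, 1.65 and 4.19. Of 6 genes measured against esophagus, 5 were at least 2-fold lower in stomach. In intestine 4 were lower and 1, Col9a1, was higher (1.58). Acan differed by 0.20 for stomach and −0.15 for intestine. In that list Pax1 was well above background in esophagus alone and Matn1 on no array. The part of the endothelial, sclerotome and cartilage markers in the Foxc differences was not tested.

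Upstream sequence is shown for Foxc1 and Foxd1, which were at least 4-fold lower in intestine and stomach than in esophagus. It is also shown for Foxf2, the gene next to Foxc1 on chromosome 13, which was under 2-fold apart in every comparison. All 3 had their highest level in esophagus, at 2.86 for Foxf2 against 2.73 in intestine. RefSeq promoter windows of GRCm38.p6 were found for 5 of the 9 genes (Foxc1, Foxd1, Foxd2, Foxf2 and Foxp1). The 250 bases before the annotated start are given 5′ to 3′ on the plus strand, at chr13:31806396-31806645 for Foxc1, chr13:98353995-98354244 for Foxd1 and chr13:31625566-31625815 for Foxf2. Capitals mark matches, on either strand, to the GC box GGGCGG or the CCAAT box CCAAT.
Foxc1: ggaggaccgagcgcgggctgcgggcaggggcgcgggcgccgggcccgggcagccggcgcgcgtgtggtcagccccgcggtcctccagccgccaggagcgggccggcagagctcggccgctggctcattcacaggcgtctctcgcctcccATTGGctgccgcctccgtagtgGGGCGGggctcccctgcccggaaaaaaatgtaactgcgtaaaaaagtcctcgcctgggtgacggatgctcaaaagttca
Foxd1: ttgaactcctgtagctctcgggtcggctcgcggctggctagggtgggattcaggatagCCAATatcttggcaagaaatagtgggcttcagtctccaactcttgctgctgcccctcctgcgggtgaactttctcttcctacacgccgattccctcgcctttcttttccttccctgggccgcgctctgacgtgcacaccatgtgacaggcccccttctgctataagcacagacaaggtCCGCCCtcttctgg
Foxf2: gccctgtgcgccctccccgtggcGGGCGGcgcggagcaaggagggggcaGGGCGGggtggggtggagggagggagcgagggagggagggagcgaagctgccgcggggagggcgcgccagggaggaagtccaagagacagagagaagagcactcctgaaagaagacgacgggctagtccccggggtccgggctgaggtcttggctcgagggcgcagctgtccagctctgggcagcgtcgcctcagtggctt
Foxc1 held 1 GC box and 1 CCAAT box, Foxd1 also 1 of each, and Foxf2 held 2 GC boxes and no CCAAT box. Over 32851 such windows, 32.7% held a GC box and 33.8% a CCAAT box, so neither is rare. No match was found in the 3 windows to TATAAA (in 12.4% of windows), to the GLI motif GACCACCCA (0.225%) or to the forkhead motif TGTTTAC (3.17%), also searched on both strands, and none of the 5 motifs contains another. The GC content was 70.8% for Foxc1, 57.2% for Foxd1 and 71.6% for Foxf2, against a median of 52.4% over all windows. Of the windows not shown, that of Foxd2, also highest in esophagus, held 2 GC boxes and no CCAAT box. The Foxp1 window with 3 GC boxes held 1 CCAAT box, and the other Foxp1 windows held none. A match describes letters and not a site in use.

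Foxf1 and Foxf2, the hedgehog-dependent factors of gut mesenchyme, differed less than 2-fold in every comparison. Foxf1 stood at −0.60 in intestine, 0.35 in stomach and −0.04 in esophagus. Stomach was the highest and intestine the lowest. Stomach minus esophagus was 0.39, intestine minus esophagus −0.56 (−0.057 when arrays were centred on their medians) and intestine minus stomach −0.95, a 1.93-fold lower level in intestine. Foxf2 stood at 2.73 in intestine, 2.17 in stomach and 2.86 in esophagus, so stomach was here the lowest organ. Intestine minus stomach was 0.56 and stomach minus esophagus −0.69. Intestine minus esophagus was −0.13, within the spread between probes, and it was 0.37 when arrays were centred on their medians and 0.067 after normexp correction. The paralogues thus had opposite signs for stomach minus esophagus and for intestine minus stomach, and the difference between them was not tested. The genes nearest to Foxf1 by pattern were the ribosomal protein genes Rps25, Rpl38 and Rpl39, within 0.03 log2 units, and those nearest to Foxf2 were Farp1, Asb17 and Nkd1, an inhibitor of Wnt signalling, within 0.06. Such patterns were common, since 233 and 123 genes lay within 0.25 of Foxf1 and Foxf2. The 10 mesenchyme markers were well above background on every array, with summed signals of 191 in intestine, 221 in stomach and 338 in esophagus. Without Col1a2, the brightest of them in esophagus, the sums were 145, 120 and 173. The median difference of this list was −0.84 for stomach minus esophagus, −0.36 for intestine minus esophagus and 0.22 for intestine minus stomach. At least 2-fold lower than in esophagus were 4 of the 10 in stomach and 3 in intestine, while Tcf21 was higher in both (1.16 and 1.95). Of the lower genes only Twist1 passed 4-fold, at −2.21 in stomach and −2.68 in intestine. The 8 epithelial markers gave 55.0 in intestine, 100.1 in stomach and 36.6 in esophagus, and without Krt18 26.9, 41.5 and 18.6. The part of mesenchyme and epithelium in the Foxf values, and of mesenchyme in the Foxc values, was not tested.

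Among 18 hedgehog and BMP genes that act upstream of the Foxf genes or beside them, 1 was at least 2-fold higher and 3 were lower in stomach than in esophagus, with a median of −0.25. The one higher was Ihh, a hedgehog ligand of the endoderm, at 4.62 (2.11 after normexp correction), and the 3 lower were Boc, a hedgehog co-receptor (−1.44), Dhh, a hedgehog ligand (−1.10), and Bmp2, at least 5.77-fold lower and not well above background in stomach. After normexp correction Dhh and Bmp2 stood at −0.63 and −0.45, and 2 genes of the list in place of 4 were at least 2-fold apart. In intestine against esophagus 3 were higher and 6 lower, with a median of −0.04. Higher were Ihh (4.08, or 1.58 after normexp correction), Bmp4 (1.31) and Bmp5 (1.05), and the 6 lower ran from −1.86 for Cdon to −1.03 for Sufu and included Ptch1, the hedgehog receptor and target (−1.76). In intestine against stomach 4 were higher, led by Bmp4 (1.56), a ligand of gut mesenchyme, and 3 lower, led by Ptch1 (−1.62), with a median of 0.08. After normexp correction 2 genes of the list in place of 7 were at least 2-fold apart. At least 2-fold apart were 9.85%, 19.9% and 12% of all genes in the 3 comparisons in that order. Gli1, a direct hedgehog target, differed by 0.01, −0.12 and −0.13.

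By the probes used, Foxp1 and Foxp2 were close in stomach and esophagus and lower in intestine. Foxp1, needed for muscle and lung development, stood at 2.56 in intestine, 3.34 in stomach and 3.39 in esophagus. Foxp2, known from airway epithelium and brain, stood at 0.95, 1.83 and 1.82 by the probe used. Stomach minus esophagus was −0.05 for Foxp1 and 0.01 for Foxp2, both within the spread between probes. The intestine level was 1.78-fold lower for Foxp1 and 1.83-fold lower for Foxp2 against esophagus, so neither reached 2-fold. The other Foxp2 probe read differently. Its levels were −2.53 in intestine, −0.64 in stomach and −0.09 in esophagus, so that intestine was 5.41-fold below esophagus and 3.70-fold below stomach. By that probe stomach minus esophagus was −0.55, more than the spread between probes of a gene. With the mean over both probes Foxp2 in intestine was past 2-fold, at −1.65 against esophagus and −1.39 against stomach. Stomach minus esophagus was then −0.27. Which transcripts each probe reads is not given in the files. The nearest genes by pattern were Sh3d19, Gtf3c1 and Septin10 for Foxp1 and Sema6b, Rpl35a and Nek1 for Foxp2, all within 0.04, with 345 and 265 genes within 0.25.

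Foxq1 and Foxd2 had their highest level in esophagus and their lowest in intestine, with smaller steps than Foxc1. Foxq1, which in mouse is needed for mucin production in the stomach surface epithelium, stood at −0.57 in intestine, 0.04 in stomach and 0.74 in esophagus. Its intestine level was 2.48-fold below that of esophagus, while stomach minus esophagus was −0.71 and intestine minus stomach −0.60. Foxd2, a gene of kidney and facial mesenchyme, stood at −4.85, −4.03 and −3.75, again descending from esophagus. Intestine was 2.15-fold below esophagus, and stomach minus esophagus was −0.28, or 0.079 after normexp correction. Its spots were dim on every array, with raw intensities of 57 in intestine, 37.5 in stomach and 45.5 in esophagus over local backgrounds of 14.5, 16 and 18. When arrays were centred on their medians, which moved the median of all genes by 0.50, both genes were short of 2-fold, at −0.81 for Foxq1 and −0.60 for Foxd2. Relative to the median of all genes, the differences were −1.41 for Foxq1 and −1.21 for Foxd2. The nearest genes by pattern were Mmp16, Gpr89 and Rab8b for Foxq1 and Cachd1, Nudt12 and Stau2 for Foxd2, all within 0.03, with 175 and 264 genes within 0.25.

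Some of the 9 genes lie close to another member in the genome. On chromosome 13 Foxq1, Foxf2 and Foxc1 are successive protein-coding genes, and on chromosome 8 Foxf1 and Foxc2 are separated by Mthfsd, in the order of a RefSeq table. Neighbours were alike in some comparisons and apart in others. For intestine minus esophagus the values were −1.31 for Foxq1, −0.13 for Foxf2, −4.50 for Foxc1 and −0.50 for Gmds, the gene after Foxc1. On chromosome 8 they were 0.79 for Irf8, a factor of myeloid cells, −0.56 for Foxf1, 0.11 for Mthfsd and −2.78 for Foxc2. The gene after Foxc2, Foxl1, had no named probe. For stomach minus esophagus Foxq1 (−0.71), Foxf2 (−0.69) and Gmds (−0.85) lay close together, with Foxc1 at −2.61. Beside Foxd1, Btf3 and Tmem174 differed by 0.10 and 0.09 for intestine minus esophagus and by 0.15 and 0.45 for stomach minus esophagus. Foxe3, the gene after Foxd2, stood at −0.36 for intestine minus esophagus and 0.46 for stomach minus esophagus. Eif4e3, after Foxp1, differed by −1.13 in intestine against esophagus and by −0.76 against stomach, where Foxp1 stood at −0.78. In intestine against esophagus Mdfic, after Foxp2, differed by −1.65. Ppp1r3a, before Foxp2, and Hus1b, before Foxq1, were not well above background on any array.

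**Figure D3:**
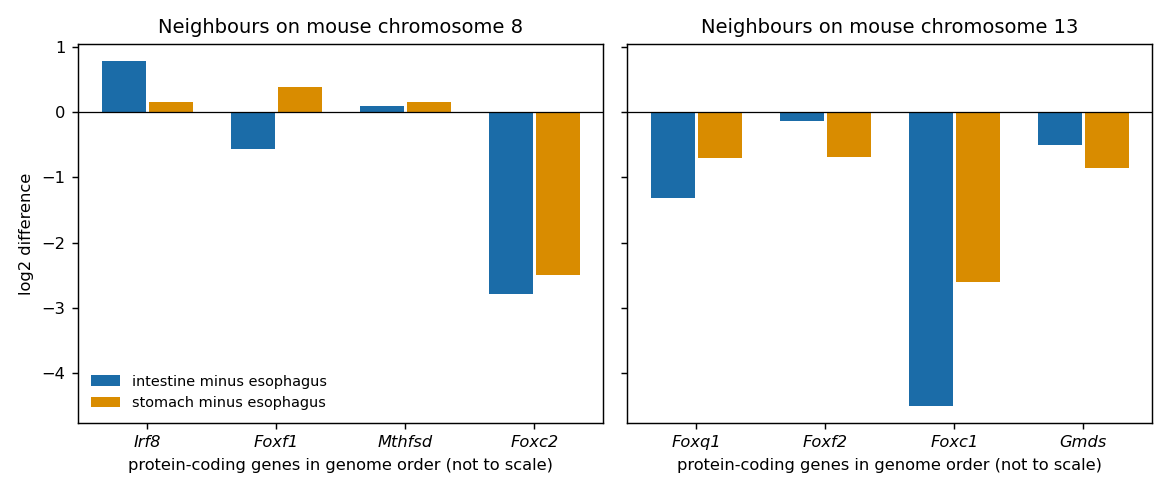
Log2 differences of intestine and stomach from esophagus for neighbouring protein-coding genes in genome order, not to scale, on chromosome 8 (left) and chromosome 13 (right). Both differences use the 1 esophagus array. Foxc2 (−2.78 and −2.51) and Foxc1 (−4.50 and −2.61) stand apart from the genes drawn beside them. Foxl1, the gene after Foxc2, had no named probe and is not drawn.

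The other 29 forkhead genes give the family around the 9. Of these, 19 were well above background on all 3 arrays and 5 on none. In stomach against esophagus 2 of 22 measured genes were at least 2-fold higher and 1 lower, with a median of 0.13, beside 4.14% higher and 5.71% lower over all genes. This count of 3 was 0 after normexp correction, 1 among probes well above background on both arrays and 5 without the filter on dim probes. In intestine against esophagus 3 of 24 were higher and 6 lower, with a median of −0.22, beside 8.4% higher and 11.5% lower over all genes. This count of 9 was 7 after normexp correction. In intestine against stomach 1 of 23 was higher and 5 lower, with a median of −0.35, beside 4.77% and 7.18% over all genes. Foxe1, a gene of thyroid and pharynx, was well above background in esophagus alone, and was at least 11.1-fold lower in intestine and at least 5.15-fold lower in stomach. After normexp correction the Foxe1 differences were −1.76 for intestine and −0.35 for stomach. Foxa2, an endoderm factor, was lower in intestine than in esophagus (−3.04) and than in stomach (−2.68). Foxa3, another endoderm factor, was higher than in esophagus in intestine (1.93) and in stomach (1.67), but by 0.16 and 0.58 after normexp correction. The 2-fold lower genes in intestine against both organs also included Foxo3, Foxo4, Foxo6 and Foxk1, between −1.97 and −1.10. The Foxk1 value rests on 1 of 3 probes, since the others gave −0.33 and −0.95 against esophagus and −0.74 and −0.86 against stomach. With arrays centred on their medians, Foxo6 (−0.97 and −0.98) and Foxk1 (−0.77 and −0.80) were short of 2-fold against esophagus and stomach. Foxj1, the regulator of motile cilia, was higher in intestine than in esophagus (1.67) and than in stomach (1.31), but stood at −0.029 and −0.27 after normexp correction. Foxl2, known from the ovary, was not well above background in esophagus. It was at least 2.06-fold higher in intestine and at least 2.62-fold higher in stomach. After normexp correction the stomach difference was 0.36. Intestine minus stomach was then −1.17, so the bound for intestine did not hold.

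**Figure D4:**
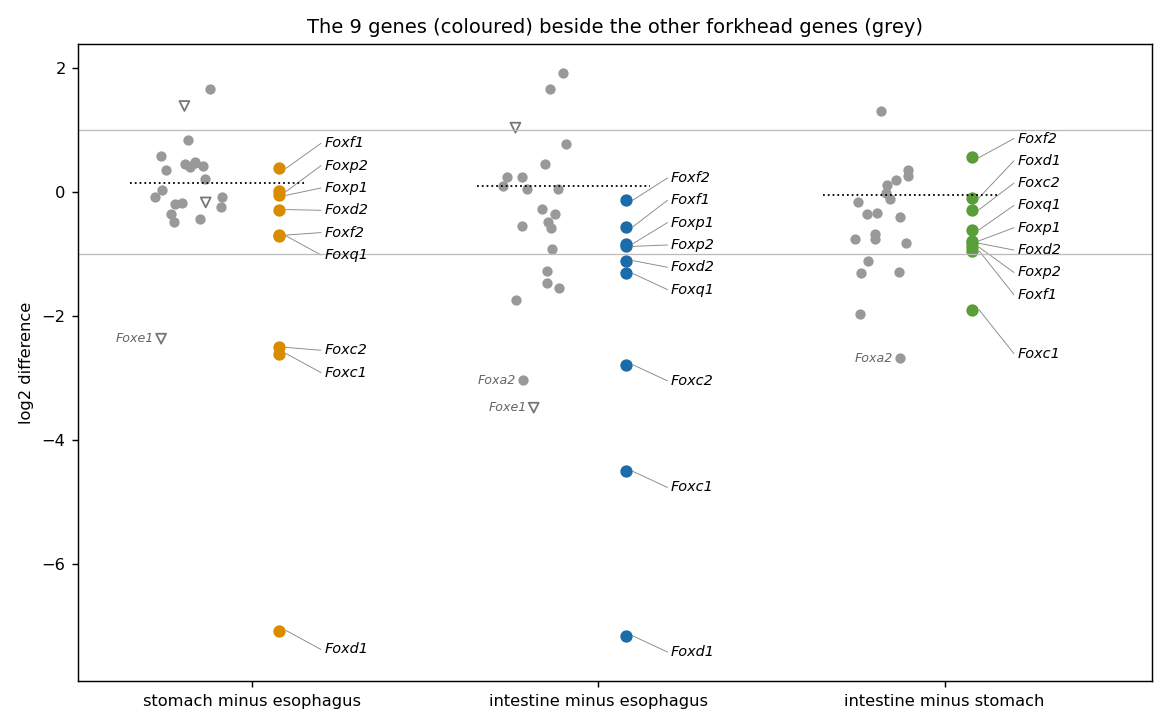
Log2 differences of the 9 genes (coloured, named) and of the other forkhead genes with a value (grey) in the 3 comparisons. Open triangles are bounds against an array where the probe was not well above background, grey lines mark 2-fold and dotted lines the median of all genes. Foxd1, Foxc1, Foxc2 and Foxe1 lie lowest of the genes drawn in stomach minus esophagus.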

How the data were processed

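The arrays measured RNA from 3 organs, with 1 sample each. Per the file headers, the deposited scanner files held spot intensity values made with Agilent Feature Extraction 10.5.1.1, after local background subtraction and spatial detrending and with no scaling between arrays. The probe design used build mm8. A deposited table of log2 values, used as an alternative, had medians of −3.47 in intestine, −3.17 in stomach and −2.97 in esophagus. Set against the scanner values, it held the same log2 levels with no centring of probes and 1 constant added per array, between 0.050 and 0.066 log2 units, with at least 99.8% of probes then within 0.01. All arrays lay on 1 slide and shared 1 scan time, so position on the slide and organ cannot be told apart.

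The software's outlier spots were dropped (77 in intestine, 70 in stomach, 111 in esophagus), and none was saturated. Values were log2 intensity minus the 75th percentile of the 43379 non-control spots, averaged per probe. Accessions matched to a RefSeq table (GRCm38.p6) named 24342 of 41112 probes, and the brightest probe stood for a gene. Among the forkhead genes, 1 is not reported here and is left out of the family counts. A gene entered a comparison when well above background on at least 1 array. Where only 1 array measured it, the fold is a bound ("at least"), set by the lowest signal called above background on the other array (8.17 in intestine, 5.85 in stomach, 7.03 in esophagus) or by the dim signal itself if larger. No test was run. The calling step was tested on simulated data. Members, lists and marker genes were chosen with earlier results of these data known. Named were all members, the nearest coding genes with a probe, and the 3 nearest patterns per member (clones left out). Of list genes at least 4-fold apart or with a known role only some were named. A list gene that is not named, such as Wnt2 or Tbx18, may thus be past 4-fold. Other list genes past 2-fold were named after their values were seen. Alternatives used limma 3.58.1 in R 4.3.3 for normexp with an offset of 50, and Python 3.11.15 otherwise.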

Additional observations from a re-analysis of the deposited data

How the results depend on the processing

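Over 8 alternatives and 3 comparisons, 194 of 216 member differences moved by less than the spread between probes of a gene and 22 by more. None of those at least 2-fold apart changed sign. Asking for signal on both arrays, lifting the filter on dim probes and keeping outlier spots left every member value as it was. The deposited table differed by a constant per array, and the mean over probes could change only Foxd1 and Foxp2. Most member values and counts were thus bound to stay under these settings, so the totals overstate how stable the values are. The count of members at least 2-fold apart stayed within 1.5 times in 21 of 24 cases. It was 3 against 5 for intestine and esophagus under median centring, and for intestine and stomach it was 3 against 1 under normexp correction (Foxc1, Foxd1 and Foxd2) and 2 against 1 with the mean over probes (Foxc1 and Foxp2). The Foxj1 differences turned to −0.029 for intestine minus esophagus and −0.27 for intestine minus stomach under normexp correction. Median centring moved the median of all genes by 0.20 for stomach and 0.50 for intestine against esophagus and by 0.30 for intestine against stomach. The share of higher genes among those at least 2-fold apart was 42.1%, 42.2% and 39.9% in these comparisons. It was 62.5%, 79.7% and 68.7% under median centring and 54.2%, 57.2% and 54.5% under quantile normalization. Under normexp it was 27.3% between intestine and esophagus and 13.3% between intestine and stomach, and 27.7% for the last without the filter on dim probes. All genes at least 2-fold apart numbered 433 under normexp and 2097 without the filter, against 1353, for stomach and esophagus, 4742 under median centring and 4744 without the filter, against 2881, for intestine and esophagus, and 3495 without the filter, against 1719, for intestine and stomach. No paired analysis was possible because each organ has 1 sample, and for the same reason none could be left out. Members at least 4-fold apart for stomach and esophagus numbered 2 against 3 under normexp correction, where Foxc2 stood at −1.65. Signal over background limits Foxd1 in intestine and stomach and Foxd2 in all organs. It also limits Foxc2 in stomach, with a raw median of 80 over a local background of 19.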
